A study of Mus musculus with 6 samples.

Results

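The 10 genes described here, of 33696 genes in the count tables, handle fatty acids: Cd36, Lpl and Fabp5 serve uptake and carriage, Plin2 and Pnpla2 storage and release, Cpt1a, Acadm and Hadha oxidation in mitochondria, and Scd1 and Scd2 desaturation. They were chosen by name for these roles and not by a threshold on their values, and all 10 were found in the tables. Their counts were read across 9 classes of mouse liver mononuclear cells sorted for CD45, a surface protein of leukocytes, and profiled by droplet single-cell RNA sequencing, which counts mRNA molecules by unique molecular identifiers (UMIs). The 3 groups were iNKT KO mice (Ja18-/-) on a 60% high-fat diet with 0.25% hyodeoxycholic acid (iNKT KO HFD+HDCA), WT mice on that diet (WT HFD+HDCA) and WT mice on the 60% high-fat diet alone (WT HFD), each after 12 weeks of feeding. Hyodeoxycholic acid (HDCA) is a bile acid, and mice without the Jα18 segment cannot make the invariant receptor of natural killer T (iNKT) cells. All 3 groups ate the high-fat diet, and the KO mice were studied with HDCA only. The normal diet that the study design also names was not analysed here.

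Each group had 1 RNA library and 1 T cell receptor (TCR) library, so no difference between groups has a replicate check. The sources used here do not state how many mice stood behind a library, nor their age or sex. The treatment text names CD4+ cells, whereas the design and the extraction protocol name CD45+ cells, and B cells made up 41.3%, 36.4% and 35.1% of the kept cells in iNKT KO HFD+HDCA, WT HFD+HDCA and WT HFD. The labels give 10000 sorted cells per sample, and 7153 barcodes were present for iNKT KO HFD+HDCA, 10228 for WT HFD+HDCA and 6479 for WT HFD. Total depth was 46600746 UMIs with 6816 kept cells in iNKT KO HFD+HDCA, 70776925 with 9672 in WT HFD+HDCA and 44332213 with 6201 in WT HFD. As a check of the genotype labels, Traj18 had 0 UMIs in iNKT KO HFD+HDCA, 160 in WT HFD+HDCA and 172 in WT HFD, and barcodes with an invariant contig numbered 1 in iNKT KO HFD+HDCA, 495 in WT HFD+HDCA and 356 in WT HFD. Pairs of libraries shared 67 to 93 barcodes, at most 1.30% of a library.

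Fatty acids reach a cell from lipoproteins whose triglycerides are split by lipoprotein lipase (Lpl), cross the membrane with the help of the scavenger receptor CD36 and are carried in the cytosol by binding proteins such as FABP5. Surplus fatty acid is stored as triglyceride in lipid droplets, which perilipin 2 (Plin2) coats and adipose triglyceride lipase (Pnpla2) opens. For oxidation, CPT1A links the fatty acid to carnitine at the mitochondrial surface, the dehydrogenase encoded by Acadm starts the cycle on medium chains, and the trifunctional protein, whose alpha subunit is Hadha, carries out later steps on long chains. The desaturases SCD1 and SCD2 place a double bond in saturated fatty acids. Several of these genes, Cd36, Plin2, Cpt1a and Acadm among them, are known targets of PPAR transcription factors, nuclear receptors that bind fatty acids.

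The promoters of Cd36, Plin2 and Cpt1a are shown because the level of each was highest in the monocyte classes. They are the 250 bases before the start listed by RefSeq on build GRCm38.p6, printed 5′ to 3′ along the gene: Cd36 at chr5:17835897-17836146 on the minus strand, Plin2 at chr4:86670060-86670309 on the minus strand and Cpt1a at chr19:3323051-3323300 on the plus strand. Capitals mark TGACCT, the nuclear receptor core motif AGGTCA on the opposite strand.
Cd36: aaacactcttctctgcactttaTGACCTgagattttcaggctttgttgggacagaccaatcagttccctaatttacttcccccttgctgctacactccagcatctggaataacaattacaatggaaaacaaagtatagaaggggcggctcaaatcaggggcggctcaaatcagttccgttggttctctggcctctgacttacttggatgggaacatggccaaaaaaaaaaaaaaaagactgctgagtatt
Plin2: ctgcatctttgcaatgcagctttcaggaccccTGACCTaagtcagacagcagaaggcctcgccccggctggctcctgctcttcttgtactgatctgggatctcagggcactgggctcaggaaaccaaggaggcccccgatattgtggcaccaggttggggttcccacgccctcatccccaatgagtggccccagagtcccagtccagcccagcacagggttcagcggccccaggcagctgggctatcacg
Cpt1a: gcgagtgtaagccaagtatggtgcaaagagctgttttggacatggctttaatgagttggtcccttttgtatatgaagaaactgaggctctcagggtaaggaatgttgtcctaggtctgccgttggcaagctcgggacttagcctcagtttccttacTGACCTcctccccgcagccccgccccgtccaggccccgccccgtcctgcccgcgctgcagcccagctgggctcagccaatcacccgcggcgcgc
The core motif lay 228 to 223 bases before the start in Cd36, 218 to 213 in Plin2 and 94 to 89 in Cpt1a. It was found on either strand in 4 of the 6 member promoters in the RefSeq table (the fourth was Acadm) and in 14.0% of all 32851 promoters of the same length. A full PPAR element of the form AGGTCANAGGTCA was found in 0 of the 6 and in 0.0335% of all. The GC box GGGCGG was in 4 of the 6 (32.7% of all), CCAAT in 3 (33.9%) and TATAAA in 0 (12.4%), each searched on both strands, and no AGGTCA match overlapped another of these motifs in the 6. These matches describe letters in a window, and no binding was measured. The start listed for Cd36 lies inside the annotated span of the gene.

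Cells were placed in classes by TCR contigs and by UMIs of marker genes. iNKT cells carried a TRAV11 or TRAV11D contig joined to TRAJ18 and numbered 437 in WT HFD+HDCA and 324 in WT HFD, and the 1 such cell of iNKT KO HFD+HDCA was left out of the comparisons. The other classes, in iNKT KO HFD+HDCA, WT HFD+HDCA and WT HFD, held 2088, 2970 and 2081 other T cells, 554, 926 and 547 NK cells, 306, 156 and 125 type 1 innate lymphoid cells (ILC1), 2817, 3524 and 2178 B cells, 184, 385 and 185 classical monocytes, 145, 213 and 108 patrolling monocytes, 27, 107 and 40 conventional dendritic cells, and 82, 113 and 63 plasmacytoid dendritic cells. The summed patrolling markers stood at 3443, 3461 and 3513 CPM (UMIs of a gene or list per 1000000 UMIs of the class in a library) in patrolling monocytes, against 408, 339 and 423 CPM in classical monocytes. The classical markers stood at 477, 425 and 392 CPM in patrolling monocytes, against 4953, 5676 and 5287 CPM in classical monocytes. B markers stood at 7842, 7820 and 7644 CPM in B cells, against 14.2 to 19.9 CPM in other T cells. These sums restate the gates. Sets of 3 values for a class are those of iNKT KO HFD+HDCA, WT HFD+HDCA and WT HFD, here and below. The levels below are CPM of such class sums, and differences between classes were tested over the 3 libraries with edgeR's quasi-likelihood test, with Benjamini-Hochberg adjustment over the 12999 genes tested. Their p-values weigh a class difference against a spread of the gene that was estimated over all classes of the 3 libraries together. It is not the spread of that class difference alone, and the libraries also differed in diet and genotype. iNKT cells entered from WT HFD+HDCA and WT HFD only.

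**Figure D1:**
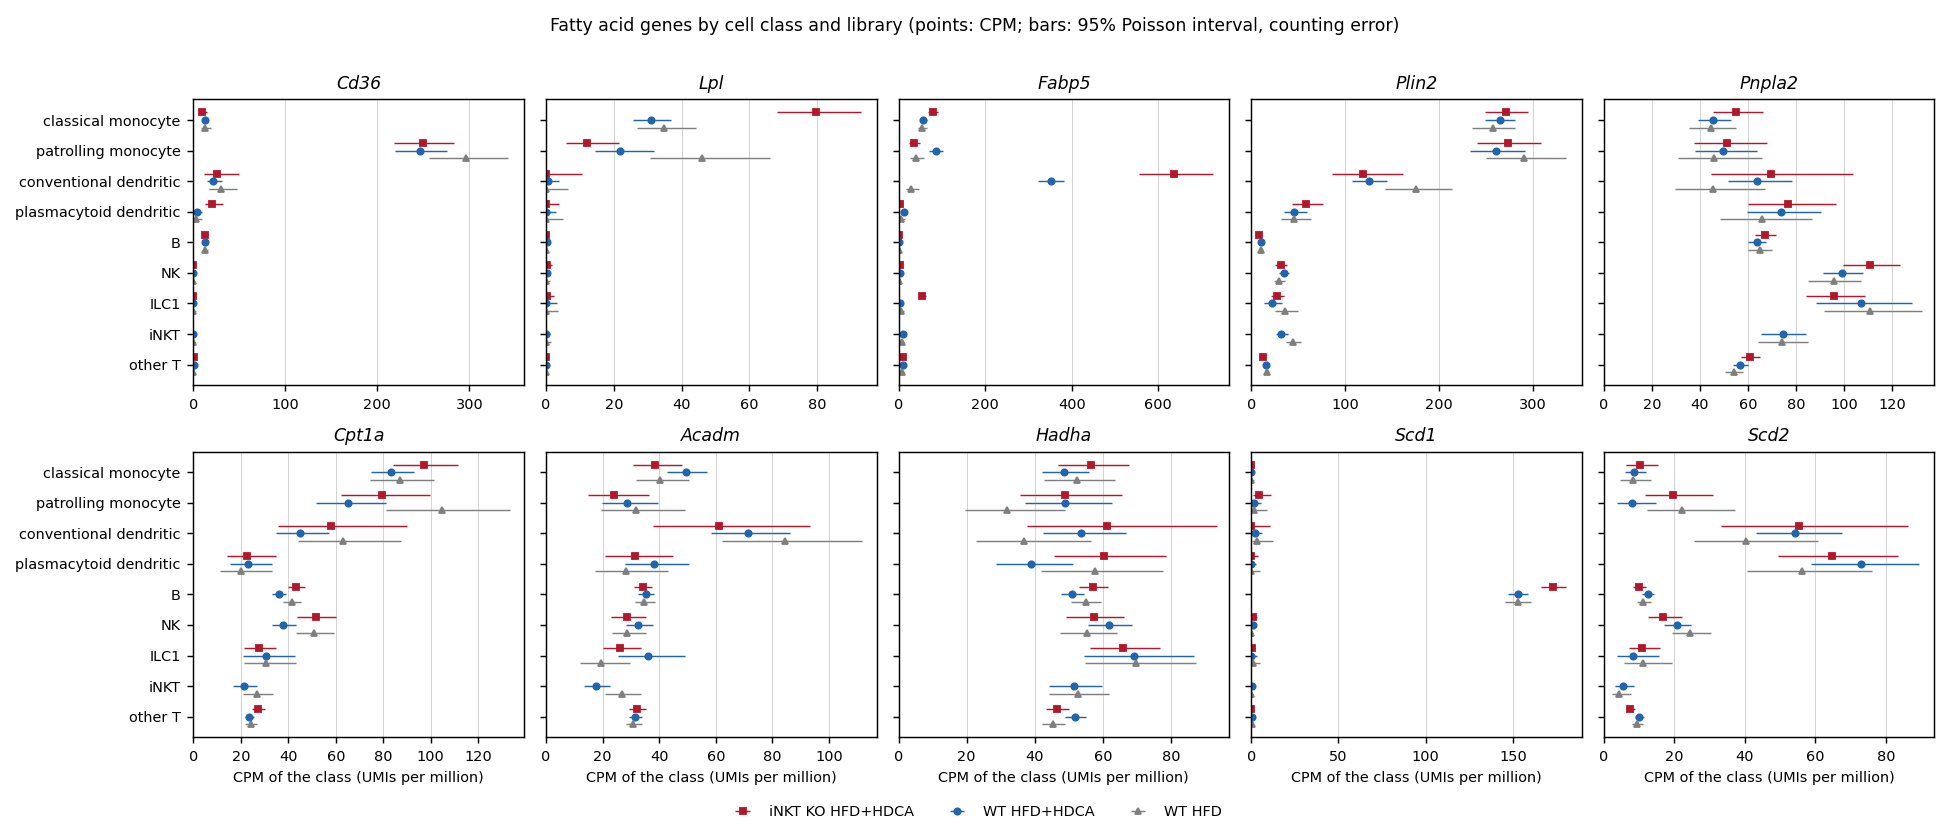
Level of the 10 genes (CPM, linear axis from 0) in each cell class, with 1 point per library and its 95% Poisson interval for counting error. Cd36 was highest in patrolling monocytes, at 246 to 297 CPM, Plin2 in patrolling monocytes at 261 to 290.4 and classical monocytes at 258 to 271 CPM, which overlapped, and Scd1 was highest in B cells at 153 to 173 CPM.

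The uptake receptor Cd36 (ENSMUSG00000002944) marked the patrolling monocytes. It stood at 249 CPM (229 UMIs) in iNKT KO HFD+HDCA, 246 CPM (303 UMIs) in WT HFD+HDCA and 297 CPM (187 UMIs) in WT HFD, and 9.66, 12.4 and 12.96 CPM in the classical monocytes of the same libraries. Every patrolling sum was far above every classical one, and the difference was 4.40 on the log2 scale (SE 0.20, adjusted p = 2.21e-14, edgeR). At least 1 Cd36 UMI was present in 55.2% of patrolling monocytes in iNKT KO HFD+HDCA, 53.1% in WT HFD+HDCA and 54.6% in WT HFD, at median depths of 5483, 5049 and 5157 UMIs. In other T cells, at deeper medians of 6803, 6912 and 6962 UMIs, the shares were 0.144%, 0.168% and 0%. With every cell thinned to 2000 UMIs, the patrolling shares were 37.3%, 38.6% and 40.2%, and no library passed 0.0972% in other T cells.

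Below the patrolling monocytes the order of Cd36 levels was conventional dendritic cells, B cells, classical monocytes, plasmacytoid dendritic cells and other T cells. Conventional dendritic cells held 26.2 CPM in iNKT KO HFD+HDCA, 21.7 in WT HFD+HDCA and 29.9 in WT HFD, on 9, 32 and 17 UMIs. B cells held 12.3, 13.04 and 13.1 CPM in these libraries, a range that overlapped that of classical monocytes. Plasmacytoid dendritic cells held 20.5, 3.96 and 2.68 CPM on only 19, 5 and 2 UMIs, and other T cells 3, 5 and 0 UMIs. No Cd36 UMI was found in NK cells, ILC1 or iNKT cells of any library with at least 20 such cells, and a floor of 3 UMIs allows levels of up to 0.527 CPM (NK cells of WT HFD+HDCA) to 2.79 CPM (ILC1 of WT HFD). Of all Cd36 UMIs in kept cells, 34.3%, 37.5% and 36.2% lay in patrolling monocytes, which were 2.13%, 2.20% and 1.74% of those cells, and 24.0%, 28.0% and 26.9% in B cells.

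Cd36 in B cells differed from its level in other T cells by 6.23 on the log2 scale (SE 0.33, adjusted p = 1.56e-14, edgeR). It was present in 4.51% of B cells in iNKT KO HFD+HDCA, 4.74% in WT HFD+HDCA and 5.0% in WT HFD at median depths of 4215, 4377 and 4491.5 UMIs, which is above the shares of other T cells given above although those cells were deeper. After thinning the shares were 1.96%, 1.95% and 2.11%. The B cells with a Cd36 UMI numbered 127, 167 and 109, and several genes picked after their values were seen were higher in them than in the other B cells. Cfp, which encodes the complement regulator properdin, stood at 63.0, 50.3 and 28.0 CPM, against 9.22, 10.8 and 5.74 CPM in B cells without Cd36. Zbtb32, a transcription factor gene, stood at 18.4, 88.2 and 54.4 CPM, against 10.3, 19.7 and 9.66 CPM, and Sox5 at 59.1, 97.2 and 45.1 CPM, against 24.2, 21.0 and 21.5 CPM. Plac8, S100a6 and Cd9 were also higher with Cd36 in every library. Not every gene read in this way was higher: the member Scd1 stood at 179, 121 and 140 CPM, against 173, 155 and 153 CPM. Fcer2a, a marker of follicular B cells, was lower in every library, at 441, 372 and 580 CPM, against 540, 567 and 604 CPM. Cr2 stood at 175, 114 and 187 CPM, against 128, 131 and 142 CPM, so it was lower in WT HFD+HDCA alone. The B cells with Cd36 were the deeper ones, with medians of 5173, 5338 and 5326 UMIs, against 4176, 4349 and 4455 UMIs. The myeloid gene Lyz2 stood at 30.2, 5.77 and 4.66 CPM in B cells with Cd36, against 19.9, 9.18 and 7.05 CPM in those without. Its level was thus higher with Cd36 in iNKT KO HFD+HDCA alone. The gate let B cells have at most 2 UMIs of Lyz2 and Csf1r together, which capped Lyz2 beforehand, so nothing is read from it. Whether Cd36 RNA from other cells had a part in these UMIs was not tested.

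Cd36 in conventional dendritic cells was 0.86 above classical monocytes on the log2 scale (SE 0.35), short of the threshold (adjusted p = 0.0556, edgeR), and past it under 5 of the alternatives. Among classical monocytes, 95%, 93.9% and 92.0% of the Cd36 UMIs lay in cells with at least 1 patrolling-marker UMI, which were 77.7%, 69.9% and 73.0% of the class. The level there was 12.2 CPM in iNKT KO HFD+HDCA, 16.2 in WT HFD+HDCA and 16.2 in WT HFD. In the cells without such a UMI it was 1.94, 2.68 and 3.94 CPM, on only 1, 3 and 2 UMIs. Markers of other cell types were also read in patrolling monocytes. Platelet markers had 3 UMIs in iNKT KO HFD+HDCA, 0 in WT HFD+HDCA and 4 in WT HFD. Endothelial markers stood at 1.09, 0 and 4.76 CPM, and Kupffer cell markers at 3.26, 2.44 and 22.2 CPM. The Kupffer level was above that of classical monocytes (4.3 to 7.3 CPM) in WT HFD alone. Hepatocyte markers stood at 7.62, 13.01 and 6.35 CPM, against 1.6 to 3.9 CPM in classical monocytes. Whether RNA from these cell types had a part in the Cd36 UMIs of patrolling monocytes was not tested.

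Patrolling monocytes with a Cd36 UMI were set beside those without in 5 other genes of lipid handling, again picked after values were seen. Pparg, the fat-cell PPAR gene, stood at 211 CPM in iNKT KO HFD+HDCA, 276 in WT HFD+HDCA and 225 in WT HFD in the cells with Cd36, against 89.7, 100 and 154 CPM in the cells without. Fabp4, a fatty acid binding protein gene, stood at 367, 306 and 376 CPM, against 201, 121 and 209 CPM, and Lpl at 19.7, 29.6 and 63.4 CPM, against 2.42, 13.6 and 13.6 CPM. These Lpl levels rest on few UMIs, 10, 19 and 26 with Cd36 against 1, 8 and 3 without. Plin2 stood at 280.3, 321 and 300.2 CPM, against 264, 196 and 272 CPM, so the gap was small in iNKT KO HFD+HDCA and WT HFD. Cpt1a stood at 84.9, 62.3 and 102 CPM, against 72.7, 68.0 and 109 CPM, and was thus lower in the cells with Cd36 in 2 of the 3 libraries. Cd300e, a patrolling marker of the gate and not a lipid gene, stood at 243, 259 and 210 CPM, against 84.9, 111 and 99.8 CPM. The cells with Cd36 were thus also higher in a marker that defined the class. The cells with Cd36 had median depths of 5477, 5232 and 6308 UMIs, against 5633, 4928 and 3885 UMIs, so those of WT HFD were also the deeper ones. Cd36 and Plin2 were seen together in 42.1%, 39.4% and 36.1% of patrolling monocytes.

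Lipoprotein lipase, Lpl (ENSMUSG00000015568), was a gene of monocytes. Classical monocytes held 79.7 CPM (165 UMIs) in iNKT KO HFD+HDCA, 31.0 CPM (123 UMIs) in WT HFD+HDCA and 34.7 CPM (67 UMIs) in WT HFD. A single cell of iNKT KO HFD+HDCA gave 78 of its 165 UMIs, and without the cell with most Lpl in each library the levels were 42.4, 27.3 and 30.8 CPM. A UMI was seen in 17.9%, 12.5% and 16.8% of classical monocytes, and in 7.18%, 3.29% and 5.0% after thinning, so most of these cells showed none. Patrolling monocytes held 12.0, 22.0 and 46.0 CPM on 11, 27 and 29 UMIs, so the ranges of the monocyte classes overlapped. The fitted difference of patrolling from classical monocytes was −0.92 on the log2 scale (SE 0.37, adjusted p = 0.0839, edgeR), and it passed the threshold without WT HFD (−1.56, adjusted p = 0.00675) and with no filter on low counts (adjusted p = 0.00467). Outside the monocytes Lpl had at most 6 UMIs in a class over the 3 libraries. Conventional dendritic cells had 1 Lpl UMI against 355 in classical monocytes, a ratio of 0.00941 (95% interval for counting error 0.000238 to 0.0528, conditional exact; intervals in this text cover counting error only), and edgeR called it lower (adjusted p = 6.27e-07).

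Fabp5 (ENSMUSG00000027533), a binding protein that carries fatty acids in the cytosol and to the nucleus, was uneven among single cells and between libraries. In conventional dendritic cells it stood at 637 CPM (219 UMIs) in iNKT KO HFD+HDCA, 351 CPM (517 UMIs) in WT HFD+HDCA and 29.9 CPM (17 UMIs) in WT HFD. A few cells carried it. Those with at least 2 UMIs of Fscn1, the fascin gene of mature dendritic cells, numbered 4 in iNKT KO HFD+HDCA, 11 in WT HFD+HDCA and 0 in WT HFD, and held 87.2% and 86.1% of the Fabp5 UMIs of the class in iNKT KO HFD+HDCA and WT HFD+HDCA. In these cells Fabp5 stood at 3813 and 4104 CPM, each had Ccr7, a receptor gene of migrating dendritic cells that was also a marker of the gate, and Cd209a had 0 UMIs. They were not uniform in Fabp5. In iNKT KO HFD+HDCA 1 of them gave 132 Fabp5 UMIs, and the cell with most Fscn1 (210 UMIs) had 0. In WT HFD+HDCA the cells with 5, 23 and 52 Fscn1 UMIs had 1, 1 and 4 Fabp5 UMIs. Without the cells with at least 2 Fscn1 UMIs the class stood at 95.3, 52.8 and 29.9 CPM. The split by Fscn1 was chosen after the values were seen.

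**Figure D2:**
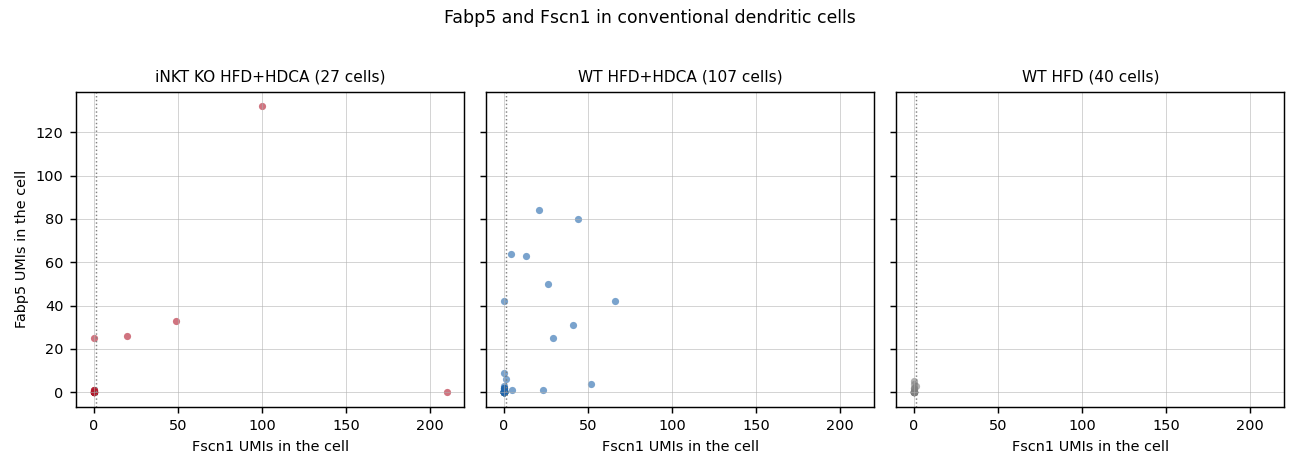
Fabp5 UMIs against Fscn1 UMIs in each conventional dendritic cell, with 1 panel per library; the dotted line marks the split at 2 Fscn1 UMIs. Cells with at least 20 Fabp5 UMIs numbered 4 in iNKT KO HFD+HDCA, 9 in WT HFD+HDCA and 0 in WT HFD, and all but 1 in iNKT KO HFD+HDCA and all but 1 in WT HFD+HDCA had at least 2 Fscn1 UMIs.

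In the monocyte classes Fabp5 stood at 34.8, 85.4 and 39.7 CPM in patrolling and at 78.8, 57.5 and 54.4 CPM in classical monocytes, ranges that overlapped. Here too single cells weighed: without the cell with most Fabp5 in each library, patrolling monocytes held 20.9, 76.9 and 28.9 CPM and classical monocytes 57.0, 46.0 and 34.5 CPM. The conventional dendritic cells were above classical monocytes by 2.09 on the log2 scale (SE 0.36, adjusted p = 2.46e-05, edgeR), although in WT HFD, which had no cell with 2 Fscn1 UMIs, their level of 29.9 CPM was below the 54.4 CPM of the classical monocytes. Other T cells held 7.35 to 9.54 CPM, iNKT cells 8.45 and 9.89, NK cells 1.56 to 4.16 and B cells 0.473 to 1.67, so that other T and iNKT cells overlapped and B cells had the lowest median. B cells were below other T cells (−3.04, SE 0.59, adjusted p = 4.55e-05, edgeR), and so were NK cells (−1.76, SE 0.68, adjusted p = 0.0342), the last lost without WT HFD+HDCA (0.0844) and without scaling factors (0.0583). ILC1 held 54.2 CPM in iNKT KO HFD+HDCA, 3.69 in WT HFD+HDCA and 6.51 in WT HFD. A single barcode of iNKT KO HFD+HDCA gave 124 of its 134 UMIs, and it also held 64 Fscn1, 22 Ccr7 and 157 H2-Aa UMIs among 18505, genes that also mark mature dendritic cells. Fabp5 has processed pseudogenes, and the sources used here do not say how reads shared with them were counted.

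The lipid droplet coat gene Plin2 (ENSMUSG00000028494) was higher in both monocyte classes and in conventional dendritic cells than in any lymphocyte class. Patrolling monocytes held 273 CPM in iNKT KO HFD+HDCA, 261 in WT HFD+HDCA and 290.4 in WT HFD, and classical monocytes 271, 264 and 258 CPM. The ranges overlapped, with a fitted difference of −0.01 on the log2 scale (SE 0.10). Plin2 was seen in 71.7%, 63.8% and 60.2% of patrolling and in 81.0%, 81.0% and 81.1% of classical monocytes, whose median depths were 11389.5, 10580 and 10875 UMIs. After thinning, the shares were 44.8%, 38.6% and 38.1%, against 38.7%, 36.4% and 41.1%, and B cells gave 1.66%, 2.50% and 1.83%. Conventional dendritic cells held 119, 125 and 176 CPM, below classical monocytes by 1.13 on the log2 scale (fitted value −1.13, SE 0.12, adjusted p = 1.0e-08, edgeR), and plasmacytoid dendritic cells 58.3, 46.0 and 45.6 CPM. The level of 45.6 CPM in WT HFD was close to the 44.8 CPM of its iNKT cells. After thinning, Plin2 was seen in 9.73% of plasmacytoid dendritic cells against 6.68% of iNKT cells in WT HFD+HDCA, but in 1.59% against 8.02% in WT HFD.

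Among lymphocytes the order of Plin2 was iNKT, NK and ILC1, whose ranges overlapped from neighbour to neighbour, then other T cells and B cells, which stood apart. iNKT cells held 32.3 CPM in WT HFD+HDCA and 44.8 in WT HFD, other T cells 12.97, 16.1 and 16.6 CPM in iNKT KO HFD+HDCA, WT HFD+HDCA and WT HFD, and B cells 8.84, 10.5 and 10.3 CPM. iNKT cells were above other T cells by 1.16 on the log2 scale (SE 0.15, adjusted p = 5.20e-07) and NK cells by 0.88 (SE 0.13, adjusted p = 7.49e-07), and B cells were below them (−0.61, SE 0.12, adjusted p = 7.36e-05), all by edgeR.

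Pnpla2 (ENSMUSG00000025509), the lipase that opens lipid droplets, had another order. It was highest in ILC1, at 95.8 CPM in iNKT KO HFD+HDCA, 107 in WT HFD+HDCA and 111 in WT HFD, and in NK cells, at 111, 99.3 and 95.6 CPM. These ranges overlapped each other and no other class. It was lowest in patrolling monocytes, at 51.1, 49.6 and 46.0 CPM, and in classical monocytes, at 55.1, 45.6 and 44.6 CPM. iNKT cells held 74.5 and 74.2 CPM in WT HFD+HDCA and WT HFD, and plasmacytoid dendritic, B, conventional dendritic and other T cells lay between 45.7 and 76.6 CPM, each overlapping the next. NK cells were above other T cells by 0.62 on the log2 scale (SE 0.07, adjusted p = 1.34e-08, edgeR). iNKT cells were above other T cells by 0.28 (SE 0.09, adjusted p = 0.0221, edgeR), a call that was lost without WT HFD+HDCA (0.329), without WT HFD (0.268) and with no filter on low counts (0.227). B cells were above other T cells by 0.20 (SE 0.07, adjusted p = 0.00955), lost without WT HFD+HDCA (0.138) and without WT HFD (0.107).

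Cpt1a (ENSMUSG00000024900), which makes the acylcarnitines that enter mitochondria, followed Plin2 in the myeloid cells. Classical monocytes held 97.1 CPM in iNKT KO HFD+HDCA, 83.4 in WT HFD+HDCA and 87.1 in WT HFD, and patrolling monocytes 79.4, 65.1 and 105 CPM. These ranges overlapped, and both lay above the conventional dendritic cells at 58.2, 44.9 and 63.3 CPM, which were lower than classical monocytes by edgeR (−0.93, SE 0.14, adjusted p = 2.38e-06). NK cells at 51.5, 37.9 and 50.6 CPM and B cells at 43.3, 36.1 and 41.4 CPM came next. ILC1, other T cells, iNKT cells and plasmacytoid dendritic cells lay between 20.1 and 30.7 CPM. NK cells were above other T cells by 0.67 (SE 0.09, adjusted p = 4.71e-07) and B cells by 0.69 (SE 0.08, adjusted p = 8.99e-09). ILC1 were below NK cells (−0.67, SE 0.14, adjusted p = 0.000440), but without iNKT KO HFD+HDCA the adjusted p was 0.120.

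Acadm (ENSMUSG00000062908), the medium-chain dehydrogenase, was highest in conventional dendritic cells, at 61.1 CPM in iNKT KO HFD+HDCA, 71.4 in WT HFD+HDCA and 84.3 in WT HFD, and next in classical monocytes, at 38.7, 49.4 and 40.4 CPM. The remaining classes lay between 17.7 and 38.0 CPM, with B cells within 34.2 to 35.2 CPM and iNKT cells at 17.7 in WT HFD+HDCA and 26.8 in WT HFD. Conventional dendritic cells were above classical monocytes by 0.53 (SE 0.16, adjusted p = 0.0105), which did not pass without WT HFD (adjusted p = 0.115) or without iNKT KO HFD+HDCA (0.0545). Patrolling monocytes were below classical monocytes (−0.71, SE 0.19, adjusted p = 0.00702), which did not pass without WT HFD+HDCA (0.156) or iNKT KO HFD+HDCA (0.0684). iNKT cells were below other T cells (−0.69, SE 0.15, adjusted p = 0.00112), which did not pass without WT HFD+HDCA (0.222). NK and B cells did not differ from other T cells past the threshold in the main fit. NK cells passed as lower without WT HFD+HDCA (−0.39, adjusted p = 0.0269), with doublets kept (0.0384), without the Acadm UMIs of the cell with most in each sum (0.0320) and with these classes compared alone (0.0266). B cells compared alone with other T cells passed as higher (0.15, adjusted p = 0.0300). All are edgeR values.

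Hadha (ENSMUSG00000025745), the alpha subunit of the trifunctional protein, had the smallest ratio of highest to lowest level of the 10. It ranged from 31.7 CPM in patrolling monocytes of WT HFD to 69.8 CPM in ILC1 of WT HFD. ILC1, at 65.9, 69.2 and 69.8 CPM, lay above every other class, and the ranges of the next 6 classes overlapped from neighbour to neighbour. B cells were above other T cells by 0.19 (SE 0.08, adjusted p = 0.0498, edgeR), and that call was lost without WT HFD (0.244) and without iNKT KO HFD+HDCA (0.150), with RLE factors (0.147), no scaling factors (0.0720), no filter on low counts (0.0656) and DESeq2 (0.174), and without the Hadha UMIs of the cell with most in each sum (0.0590). No other comparison of Hadha passed with TMM factors, and NK over other T cells did without scaling factors (0.28, adjusted p = 0.0133).

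The desaturase Scd1 (ENSMUSG00000037071) was a gene of B cells. It stood at 173 CPM (2251 UMIs) in iNKT KO HFD+HDCA, 153 CPM (2647 UMIs) in WT HFD+HDCA and 153 CPM (1614 UMIs) in WT HFD, and other T cells had 2, 6 and 6 UMIs. B cells held 95.1%, 95.7% and 94.6% of the Scd1 UMIs of all kept cells, and the difference from other T cells was 9.13 on the log2 scale (SE 0.17, adjusted p = 1.36e-24, edgeR). A UMI was present in 48.9%, 47.0% and 47.4% of B cells, and in 0.0958%, 0.168% and 0.288% of the deeper other T cells. Thinned to 2000 UMIs, the shares were 28.5%, 26.6% and 25.7% of B cells, against 0.0486%, 0.136% and 0.0483% of other T cells. Classical monocytes and plasmacytoid dendritic cells had 0 UMIs in every library, which allows levels of up to 0.756 to 1.56 CPM and 2.38 to 4.02 CPM.

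Elsewhere Scd1 rested on a handful of UMIs. Patrolling monocytes had 4, 2 and 1 UMIs and conventional dendritic cells 0, 3 and 2, and edgeR called both above the 0 UMIs of classical monocytes (adjusted p = 0.00391 and 0.00731). Against a floor of 3 UMIs over the classical monocytes of the 3 libraries, these were at least 6.69-fold and at least 5.57-fold higher. The patrolling call was lost without iNKT KO HFD+HDCA (adjusted p = 0.0772) and the dendritic call without WT HFD+HDCA (0.114). NK cells were called above other T cells on 11 against 14 UMIs (log2 difference 1.52, SE 0.62, adjusted p = 0.0450), lost without WT HFD+HDCA (0.477), without iNKT KO HFD+HDCA (0.288), without the Scd1 UMIs of the cell with most in each sum (0.151), with doubled marker thresholds (0.0685) and with doublets kept (0.0623).

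Scd2 (ENSMUSG00000025203), the close paralogue, lay elsewhere. It was highest in plasmacytoid dendritic cells, at 64.8 CPM in iNKT KO HFD+HDCA, 72.9 in WT HFD+HDCA and 56.3 in WT HFD, and in conventional dendritic cells, at 55.3, 54.4 and 40.4 CPM. NK cells held 16.9, 20.7 and 24.4 CPM, patrolling monocytes 19.6, 8.13 and 22.2, B cells 10.1, 12.6 and 11.2, and ILC1, other T cells and classical monocytes between 7.48 and 11.2 CPM, each overlapping the next. iNKT cells were lowest, at 5.53 in WT HFD+HDCA and 4.41 in WT HFD. Conventional dendritic cells were above classical monocytes by 2.29 (SE 0.24, adjusted p = 5.84e-09) and NK cells above other T cells by 0.97 (SE 0.15, adjusted p = 2.00e-06). iNKT cells were below other T cells (−1.03, SE 0.27, adjusted p = 0.00523), a call lost without WT HFD+HDCA (0.0689) and without WT HFD (0.129), and ILC1 below NK cells (−0.94, SE 0.24, adjusted p = 0.00485), lost without WT HFD (0.0590). B cells were above other T cells by 0.34 (SE 0.13, adjusted p = 0.0219), lost without WT HFD+HDCA (0.179), without iNKT KO HFD+HDCA (0.0806) and with DESeq2 (0.0794). Patrolling over classical monocytes did not pass in the main fit. It passed without WT HFD+HDCA (1.15, adjusted p = 0.0421) and with DESeq2 (0.79, adjusted p = 0.0486). All are edgeR values unless DESeq2 is named, and the sources used here do not say how reads shared between Scd1 and Scd2 were counted.

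**Figure D3:**
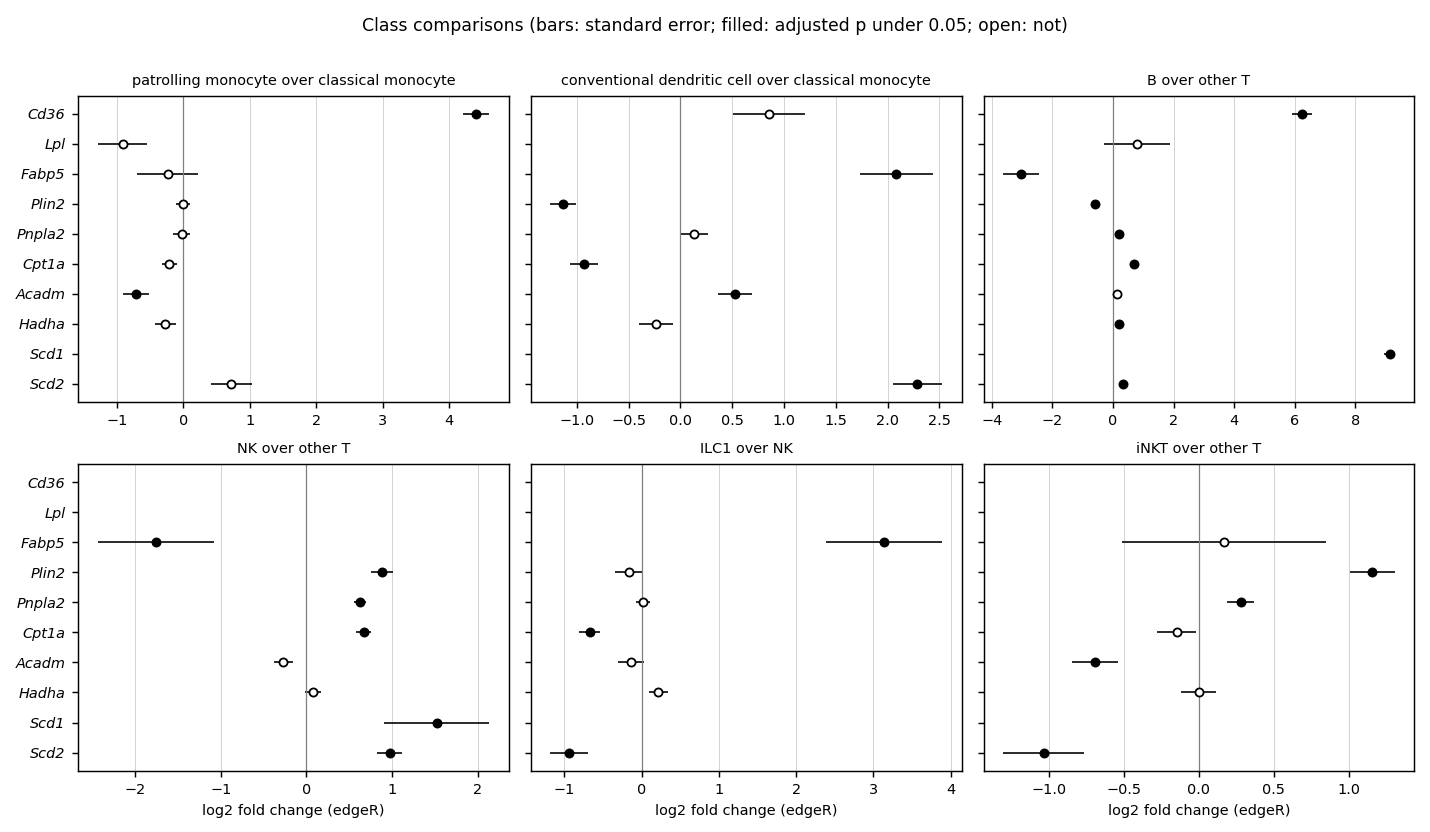
Fitted log2 fold change with its standard error for 6 class comparisons, drawn only where both classes had over 3 UMIs of the gene. Filled points passed an adjusted p of 0.05. The largest were Scd1 and Cd36 in B over other T cells, at 9.13 and 6.23, and Cd36 in patrolling over classical monocytes, at 4.40.

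Over the 10 genes, patrolling over classical monocytes gave 2 higher and 1 lower, against 21.8% of all genes called in either direction, and conventional dendritic cells over classical monocytes gave 4 higher and 3 lower (background 37.8%). B over other T cells gave 6 higher and 2 lower (63.0%), NK over other T cells 5 higher and 1 lower (47.1%), ILC1 over NK cells 1 higher and 2 lower (18.1%) and iNKT over other T cells 2 higher and 2 lower (21.3%). With 10 genes these counts lie within a few genes of the background, and nothing is read from them. The median log2 difference of the 10 was −0.12 for patrolling over classical monocytes (all genes −0.06), 0.33 for conventional dendritic cells over classical monocytes (0.00), 0.27 for B over other T cells (0.01), 0.65 for NK over other T cells (−0.01), −0.15 for ILC1 over NK cells (−0.01) and −0.42 for iNKT over other T cells (−0.03). With genes at 0 UMIs in a class set to their bound and genes under the floor in both classes left out, the iNKT median was −0.07, the NK median 0.67 and the other medians were as given. Without TMM scaling factors the median of all genes moved by 0.18 for conventional dendritic cells over classical monocytes, 0.13 for iNKT and 0.20 for NK over other T cells, and 64.6%, 67.8% and 69.1% of all called genes were higher, against 47.0%, 47.0% and 47.7% with TMM. No member that passed the threshold in either fit changed its direction, but without the factors the calls of Fabp5 in NK and Hadha in B over other T cells ended, and Cd36 and Pnpla2 in conventional dendritic cells and Hadha in NK cells passed. Comparisons that share classical monocytes, other T or NK cells share those sums. The ILC1 call of Fabp5 rested on the 1 barcode described above: the fitted difference was 3.14 (SE 0.75, adjusted p = 0.00256, edgeR) 0.64 (adjusted p = 0.764) without the Fabp5 UMIs of the cell with most in each sum, and 1.03 (adjusted p = 0.746) without iNKT KO HFD+HDCA.

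Of 61 other genes of fatty acid uptake, storage, oxidation, synthesis and regulation, 53 could be tested. Patrolling over classical monocytes gave 9 higher and 12 lower (background 21.8%), conventional dendritic cells over classical monocytes 6 and 13 (37.8%), B over other T cells 11 and 26 (63.0%), NK over other T cells 19 and 12 (47.1%), ILC1 over NK cells 6 and 5 (18.1%) and iNKT over other T cells 6 and 6 (21.3%). These counts describe the list, and whether it differs from other genes was not tested. In the same order of comparisons, the 7 tested genes of uptake and activation gave 2 higher and 1 lower, 0 and 1, 3 and 3, 1 and 2, 1 and 0, and 1 and 0. The 13 genes of storage and lipolysis gave 3 and 3, 0 and 5, 4 and 6, 5 and 3, 2 and 3, and 1 and 4. The 17 oxidation genes gave 0 and 6, 1 and 2, 2 and 8, 8 and 3, 0 and 1, and 1 and 1. In patrolling monocytes, every oxidation gene that passed was thus lower than in classical monocytes. Of all genes called in that comparison, 1182 were higher and 1648 lower. The 8 tested genes of synthesis and desaturation gave 2 and 0, 5 and 0, 1 and 5, 4 and 2, 2 and 1, and 1 and 1, and the 8 tested regulators and PPAR targets 2 and 2, 0 and 5, 1 and 4, 1 and 2, 1 and 0, and 2 and 0. The median log2 difference of the 53 was −0.17, −0.10, −0.26, 0.17, 0.01 and −0.07 for the comparisons in that order.

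The genes of that list with the largest called differences are given for each comparison. Patrolling monocytes were above classical monocytes in Fabp4 (5.12, SE 0.33, adjusted p = 1.97e-12), in G0s2, an inhibitor of the Pnpla2 lipase (4.67, SE 0.31, adjusted p = 4.08e-12), and in Pparg (3.78, SE 0.37, adjusted p = 7.94e-09), and below them in the fatty acid transporter Slc27a1 (−1.90, adjusted p = 0.00245). Conventional dendritic cells were above classical monocytes in the desaturase Fads2 (4.09, adjusted p = 3.12e-05, lost without WT HFD+HDCA at 0.0656) and below them in the sterol receptor Nr1h3 (−2.89, adjusted p = 0.000444) and in Pparg (−2.82, adjusted p = 0.0179, lost without WT HFD at 0.0760 and with DESeq2 at 0.0513). G0s2 had 0 UMIs in conventional dendritic cells against 18 in classical monocytes, at least 1.80-fold lower, a call (adjusted p = 0.0141) lost without WT HFD+HDCA (0.222), without WT HFD (0.0529) and with doublets kept (0.101). B cells were below other T cells in the phosphatidate phosphatase Lpin1 (−3.42, adjusted p = 7.77e-20), the PPAR partner Rxra (−3.75, adjusted p = 7.86e-11) and Angptl4, an inhibitor of lipoprotein lipase (−3.48, adjusted p = 1.19e-07), and in G0s2, on 2 against 416 UMIs, a ratio of 0.00630 (0.000761 to 0.0229).

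In the innate-like lymphocytes, ILC1 were above NK cells in Mgll, the monoglyceride lipase (2.80, adjusted p = 0.000633), and Slc27a1 (2.78, adjusted p = 0.000119), and below them in G0s2 (−3.96, adjusted p = 4.46e-08) and Lpin1 (−2.12, adjusted p = 2.99e-12). iNKT cells were above other T cells in Mgll (3.27, adjusted p = 3.19e-05) and Slc27a1 (1.16, adjusted p = 0.00279, lost without WT HFD+HDCA at 0.144 and without WT HFD at 0.0511), and below them in the acyltransferase Gpat3 (−1.74, adjusted p = 0.00875, lost without WT HFD at 0.399 and with DESeq2 at 0.0577) and Lpin1 (−1.10, adjusted p = 2.84e-06). NK cells were below other T cells in Slc27a1 (−2.27, adjusted p = 1.61e-05) and in the lipid droplet protein Plin3 (−1.88, adjusted p = 1.77e-11), all by edgeR. Pparg had 1 UMI in NK cells against 89 in other T cells, a ratio of 0.0502 (0.00126 to 0.287), and Fads2 5 against 1, a ratio of 22.3 (2.50 to 1056). Without WT HFD+HDCA neither of these passed (adjusted p = 0.186 and 1), Pparg did not without WT HFD (0.0592) and Fads2 did not without iNKT KO HFD+HDCA (0.0532).

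Over the 26 class sums the members varied together in part, as Pearson correlations of log2(CPM + 10) show. These are descriptions, since the sums of a library share its preparation and depth. The highest were Lpl and Cpt1a at 0.80, Plin2 and Cpt1a 0.78, Lpl and Plin2 0.77, Cd36 and Plin2 0.69 and Hadha and Pnpla2 0.69. Other pairs ran in opposite directions, the lowest being Pnpla2 with Cd36 at −0.59, with Lpl at −0.58 and with Plin2 at −0.57. Among 12544 genes with at least 200 UMIs, those most alike to Cd36 were Dusp16 (0.97), Tmem26 (0.94) and Gm56974 (0.93), to Lpl Clec4d (0.97), Plcb1 (0.96) and Slc7a8 (0.96), and to Plin2 Degs1, Ccdc12 and Itpripl2 (0.97 each). Those most alike to Fabp5 were Cxcl16 (0.94), Anxa3 (0.89) and Avpi1 (0.88), to Scd2 P2ry14 (0.92), and to Scd1 Ighv1-19, Vpreb3 and Igkv6-32 (1.0 each), which are genes of B cells.

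Between libraries, most members stayed within 1.5-fold in most classes. These comparisons set 1 library against 1, so no test was possible, and a pair of a gene and a class was counted as past 1.5-fold where it had at least 50 UMIs over both libraries. For iNKT KO HFD+HDCA over WT HFD+HDCA, 5 of 56 pairs were past 1.5-fold (8.93%), against 7.82% over all genes and classes. For WT HFD+HDCA over WT HFD, 8 of 61 pairs were past 1.5-fold (13.1%), against 6.44%. The WT HFD+HDCA library stands in both. The share for iNKT KO HFD+HDCA over WT HFD+HDCA was near its background.

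In iNKT KO HFD+HDCA over WT HFD+HDCA, 3 of the 5 pairs were Fabp5. Its ratio was 14.7 (95% interval 5.60 to 54.7) in ILC1, where 1 barcode held 124 of 134 UMIs, 1.81 (1.54 to 2.13) in conventional dendritic cells, where the ratio came to −0.19 on the log2 scale without the cell with most Fabp5 in each library, and 0.408 (0.266 to 0.611) in patrolling monocytes. Lpl in classical monocytes had a ratio of 2.57 (2.02 to 3.27), or 0.63 on the log2 scale without the cell with most Lpl. Hadha in plasmacytoid dendritic cells had a ratio of 1.56 (1.04 to 2.33). Over all genes, 8.77% in ILC1, 21.1% in conventional dendritic cells, 7.94% in patrolling monocytes, 6.73% in classical monocytes and 8.47% in plasmacytoid dendritic cells were past 1.5-fold. No member in B cells, other T cells or NK cells was past 1.5-fold in this comparison, where 5.15%, 5.20% and 6.39% of all genes were.

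In WT HFD+HDCA over WT HFD, the patrolling monocytes held 4 of the 8 pairs, out of 8 members with enough UMIs and against 11.4% of all genes in that class. Fabp5 had a ratio of 2.15 (1.38 to 3.48) and Hadha 1.54 (0.914 to 2.69), whereas Lpl had 0.477 (0.272 to 0.835) and Cpt1a 0.621 (0.443 to 0.874). The Lpl UMIs lay in few cells, 27 UMIs in 13 cells (6.10%) of WT HFD+HDCA and 29 in 6 cells (5.56%) of WT HFD. Without the cell with most Lpl in each library, 21 and 19 UMIs remained, at 17.2 and 30.5 CPM. Fabp5 in conventional dendritic cells had a ratio of 11.8 (7.27 to 20.4), which came to 0.82 on the log2 scale without the cells with at least 2 Fscn1 UMIs, a class in which 15.8% of all genes were past 1.5-fold. In ILC1, Acadm had 1.84 (1.06 to 3.30) and Plin2 0.610 (0.351 to 1.04), against 7.28% of all genes. In iNKT cells Acadm had 0.661 (0.463 to 0.942), against 4.44% of all genes, and Plin2 0.720 (0.552 to 0.939), which was not past 1.5-fold. On cells thinned to 2000 UMIs, the log2 ratios were 0.18 for Acadm and −2.76 for Plin2 in ILC1, −1.42 for Acadm in iNKT cells and 1.74 for Fabp5 in patrolling monocytes. No member was past it in classical monocytes, B, other T, NK or plasmacytoid dendritic cells, where 5.44%, 4.52%, 4.03%, 4.18% and 8.43% of all genes were.

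**Figure D4:**
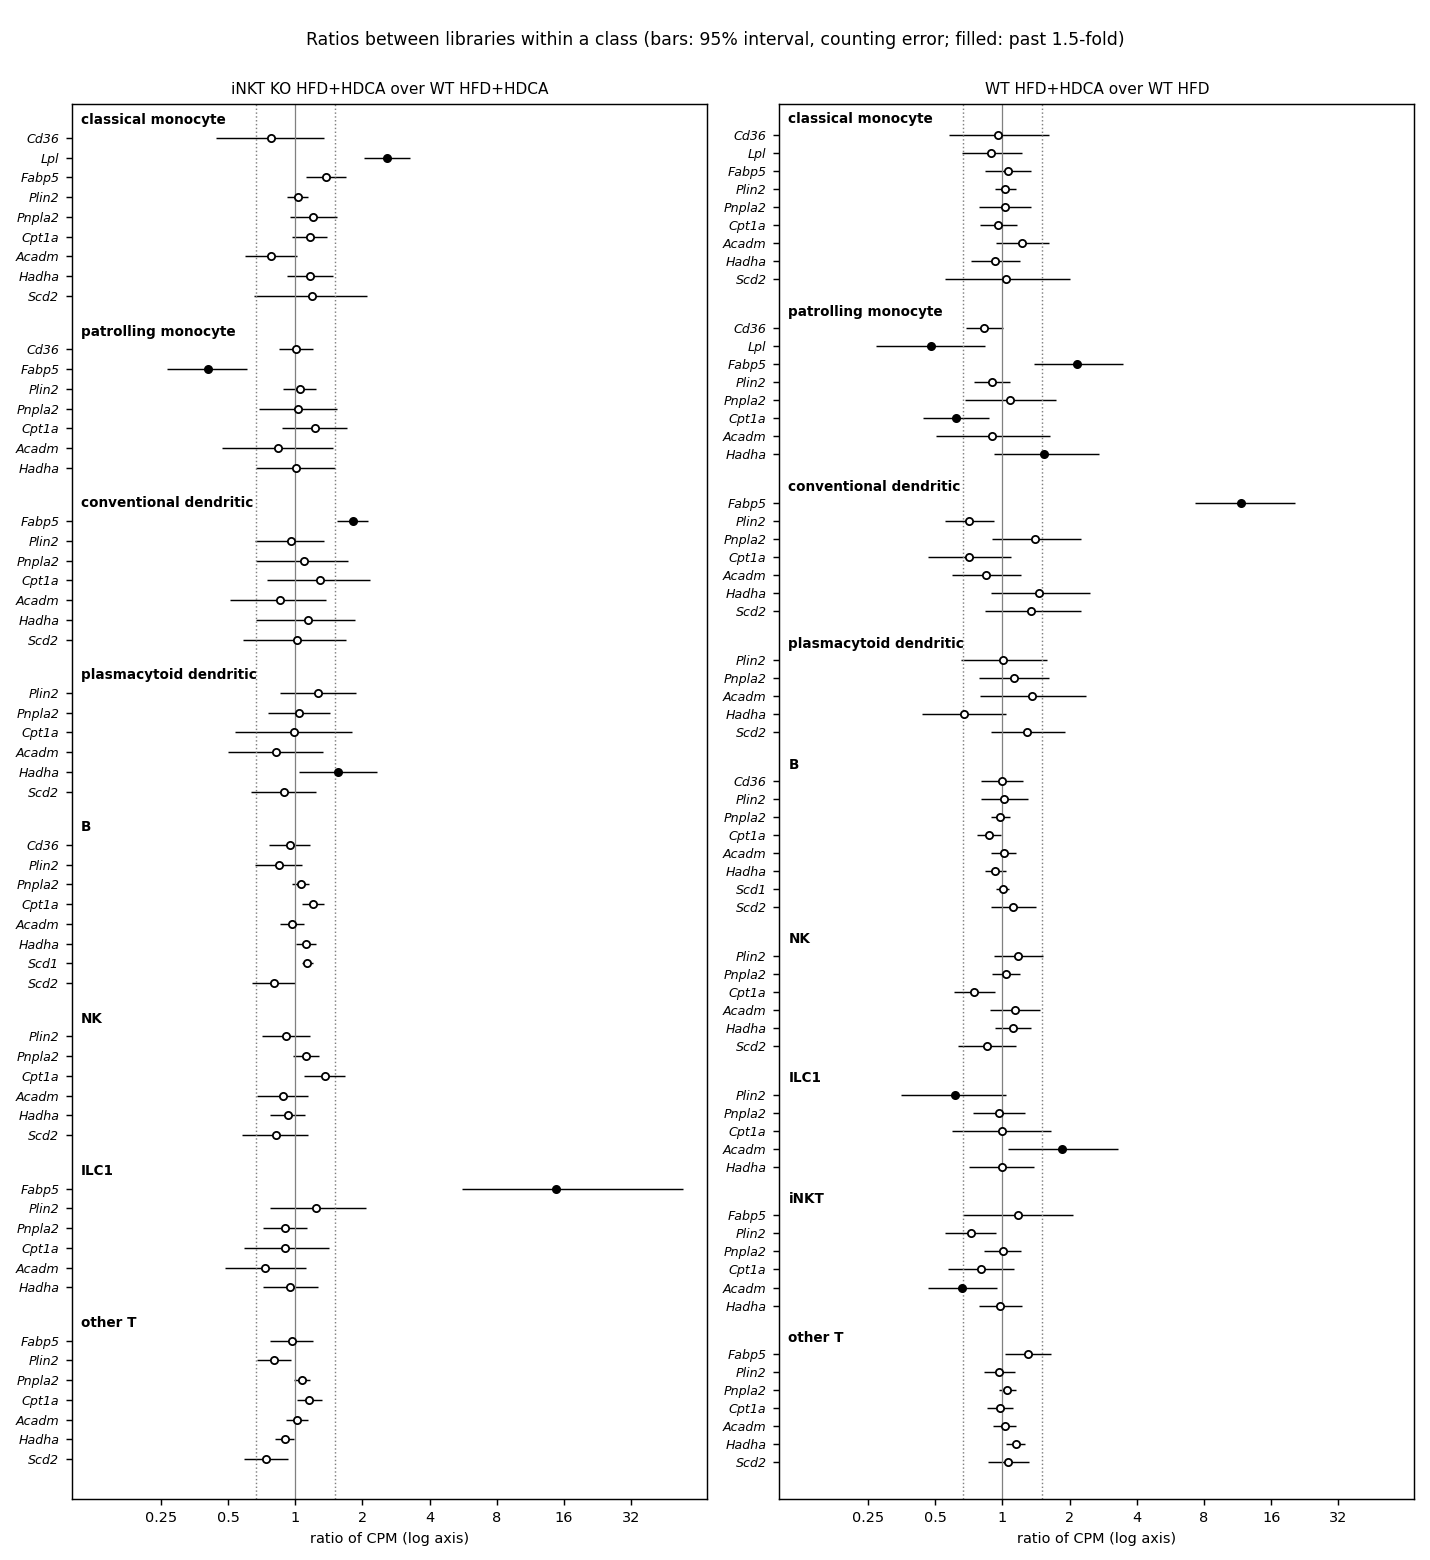
Ratio of CPM between libraries within a class (log axis) for each member with at least 50 UMIs over both libraries, with its 95% interval for counting error. Filled points were past 1.5-fold: 5 of 56 for iNKT KO HFD+HDCA over WT HFD+HDCA and 8 of 61 for WT HFD+HDCA over WT HFD.

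Cd36 in patrolling monocytes, Scd1 in B cells and Plin2 in both monocyte classes, which set the main class differences, were not past 1.5-fold in either comparison. Of the other fatty acid genes, those furthest from 1 in iNKT KO HFD+HDCA over WT HFD+HDCA were Pparg in other T cells at 0.114 (0.0359 to 0.282, on 5 against 62 UMIs), Gpat4, an acyltransferase of triglyceride synthesis, in ILC1 at 2.92 (1.44 to 6.70), Pparg in classical monocytes at 2.75 (1.72 to 4.47) and the elongase Elovl6 in conventional dendritic cells at 0.408 (0.144 to 0.938). After thinning, that Elovl6 ratio lay on the other side of 1 (0.415 on the log2 scale), so its direction did not hold. In WT HFD+HDCA over WT HFD they were Elovl6 in conventional dendritic cells at 3.48 (1.59 to 9.01), the short-chain dehydrogenase Acads in the same class at 2.14 (1.12 to 4.52), Mgll in iNKT cells at 2.14 (1.26 to 3.77) and Pparg in other T cells at 2.0 (1.21 to 3.42), or 1.83 on the log2 scale without the cell with most Pparg in each library.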

How the data were processed

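The RNA files held counts, UMIs per gene and cell barcode, as deposited, from Cell Ranger 8.0.1 per the file headers, for barcodes the authors had already filtered (lowest totals 500 to 502 UMIs). The TCR files held deposited counts of UMIs and reads per contig, and the deposited gene, barcode and contig names were text. The submitters' processing notes name both mm10 and GRCm39, and no source used here gives the annotation release. Every column of per-sample values belonged to a sample of the series (0 others).

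A cell had to show 200 genes or more and less than 10% mitochondrial UMIs, and Scrublet doublets (scanpy 1.11.5) were dropped: 304 in iNKT KO HFD+HDCA, 502 in WT HFD+HDCA and 225 in WT HFD, or 4.25%, 4.91% and 3.47%. T cells were called by contigs and the other classes by at least 3 UMIs of their markers (6 for plasmacytoid dendritic cells). NK cells and ILC1 were told apart by the larger marker sum, as were classical monocytes, patrolling monocytes and conventional dendritic cells. Limits on other lineages differed by class. They were at most 2 UMIs of B markers, of Lyz2 and Csf1r together or of shared NK and ILC1 markers, and under 6 of plasmacytoid markers. Outside T cells at most 1 UMI of the CD3 genes was allowed. No limit on conventional dendritic markers was set for T, NK, ILC1 or B cells. Cells that met no class, 8.70% to 8.98% of a library, stayed out. UMIs were summed per class and library, sums of under 20 cells were left out, and the 26 sums were fitted with edgeR 4.0.16 (TMM, class and library as terms, 15 residual degrees of freedom, filterByExpr). The SE of a log2 difference is its size over the square root of its F statistic. Between libraries, ratios of CPM carry conditional exact intervals. Shares of cells were repeated after thinning each cell to 2000 UMIs, leaving out shallower cells. The self-test used simulated sums.

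All 10 members were described in every class. Of a list of other fatty acid genes, up to 4 per comparison were named by size among those past the threshold, and the 3 most alike genes by correlation. For Scd2 the most alike gene alone is given, since a result of that list is not reported here. The members and lists were chosen with earlier results of these data known. Alternatives were RLE factors, DESeq2 1.42.0, no filter, the classes compared alone, leaving out each library, doubled marker thresholds, doublets kept, thinning, scaling by the median ratio, other UMI and fold limits and a 5% mitochondrial limit. Added after seeing the data were no scaling factors, class comparisons without the gene's UMIs of the cell with most (its other UMIs kept), and dendritic cells without Fscn1. Versions were R 4.3.3, Python 3.11.15, scipy 1.17.1 and matplotlib 3.10.9.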

Additional observations from a re-analysis of the deposited data

Results flagged for a closer look

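For 2 genes, ratios between libraries lay past 1.5-fold on opposite sides of 1 in different classes, with counting intervals that leave out 1. The difference between the classes was not tested, since each library stands alone. In WT HFD+HDCA over WT HFD, Acadm had a ratio of 1.84 in ILC1 and of 0.661 in iNKT cells, or 0.18 and −1.42 on the log2 scale after thinning. In iNKT KO HFD+HDCA over WT HFD+HDCA, Fabp5 had a ratio of 14.7 in ILC1 and of 1.81 in conventional dendritic cells, against 0.408 in patrolling monocytes. The barcode with most Fabp5 held 124 of the 134 UMIs in the ILC1 of iNKT KO HFD+HDCA and 132 of the 219 in its conventional dendritic cells.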

How the results depend on the processing

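Of the 10 members, 3 were called for patrolling over classical monocytes and 1 to 4 with a library left out, 3 for ILC1 over NK cells and 1 to 3, and 4 for iNKT over other T cells and 1 to 4. The counts of the other class comparisons stayed within 1.5 times. For WT HFD+HDCA over WT HFD, 8 pairs were past 1.5-fold, but 2 of 32 after thinning and 3 at a fold of 2. For iNKT KO HFD+HDCA over WT HFD+HDCA, 5 were, but 9 of 63 with at least 20 UMIs and 3 at a fold of 2. Fabp5 in conventional dendritic cells reversed to −0.19 (log2) in that comparison without the cell with most Fabp5, and Elovl6 in the same class reversed to 0.415 after thinning. The causes were not tested. Over single genes and alternatives, 818 class differences kept side and direction, 49 lost the call and 16 gained it. After thinning, 29 of the 30 shares of cells moved. Depth limits the dendritic and patrolling classes most, since 27 conventional dendritic cells of iNKT KO HFD+HDCA held 343747 UMIs. Between groups no paired analysis was possible because each group had 1 RNA library, whereas the class comparisons had library as a term.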

Other observations

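A few patterns within classes, read after their values were seen, were left out of the comparisons above. Fabp5 stood at 50.2 CPM in the 31 dividing other T cells (at least 4 UMIs of cell division markers) of iNKT KO HFD+HDCA, 46.2 in the 49 of WT HFD+HDCA and 34.2 in the 33 of WT HFD, against 7.74, 8.10 and 6.37 CPM in the other T cells that were not dividing. Scd1 stood at 179, 165 and 156 CPM in B cells with a UMI of Fcer2a, a marker of follicular B cells, against 155, 116 and 140 CPM in B cells without. Scd2 stood at 9.27, 10.5 and 9.17 CPM in those with Fcer2a, against 12.5, 18.9 and 19.8 CPM in those without. Cells that met no class held 227 of the 667 Cd36 UMIs of iNKT KO HFD+HDCA, 188 of the 808 of WT HFD+HDCA and 146 of the 516 of WT HFD. Of these, 177, 163 and 126 UMIs lay in cells with at least 3 patrolling-marker UMIs, and 134, 130 and 105 in cells that also had at least 3 B-marker UMIs.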
